A study of Mus musculus with 3 samples.

Results

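Chromatin accessibility was followed at 9 chemokine ligand genes, Ccl2, Ccl7, Ccl12, Ccl8, Ccl5, Ccl3, Ccl4, Ccl24 and Cxcl1, of 34614 protein-coding and long noncoding RNA genes, in single cells of mouse kidney. The members are a named list. Their values are counts in every peak that overlaps the gene body or the 2 kb on either side of it (mouse build mm10), taken per library and cell class. The assay was mtscATAC-seq, in which fixed and permeabilised cells keep their mitochondria while a transposase cuts accessible DNA. All mice carried a point mutation in trnE, the mitochondrial gene for the glutamate tRNA. Old replicate 1 was a kidney at 75 weeks of age with 75% of mitochondrial genomes mutated, old replicate 2 was a kidney at 75 weeks with 80% mutated, and the young library was a kidney at 3 weeks with 80% mutated. No mouse without the mutation was used here, the sources used here name no sex, and load differs between the old replicates. Nothing in the labels says whether the old replicates came from separate animals. A p-value here therefore measures only how far these libraries spread, which may be technical.

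Chemokines are small secreted proteins that guide leukocytes through G protein-coupled receptors, and many of their genes lie in clusters that arose by duplication. In the kidney, tubule, endothelial and resident immune cells can all make them, and NF-kB signalling is a well known inducer. An open promoter or enhancer shows that a gene can be reached by the transcription machinery, and it does not measure RNA or protein.

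The libraries differed in the cells they held. Of 5315 cells in old replicate 1, 3287 were macrophage or dendritic-like, 1226 T or NK-like, 166 neutrophil-like, 188 endothelium-like, 197 proximal tubule-like and 50 loop to collecting duct-like, a class that joins the tubule segments after the proximal tubule. Of 3950 cells in old replicate 2 these classes held 4, 2, 3, 103, 3063 and 324, and of 3976 young cells 118, 75, 15, 50, 2774 and 204. Cluster 18 had 9 raised B cell markers and 143, 0 and 127 cells, and it kept its number because its cells were shallow, at 0.289 of their libraries' median count. Old replicate 1 was thus mostly immune and old replicate 2 nearly devoid of immune cells, so an old immune value is always the value of 1 library. Barcodes held a median of 16288.5, 13338.5 and 23319.5 counts in peaks in the same order. Between 28 and 39 barcodes occurred in both of 2 libraries, at most 0.907% of a library. Regions of the members and listed genes were left out of the clustering.

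Ccl2 spans chr11:82035577-82037452, Ccl7 chr11:82045712-82047525, Ccl12 chr11:82101845-82103399 and Ccl8 chr11:82115185-82116799, which places these 4 genes within 79.6 kb from the first start to the last. Further along the chromosome lie Ccl5 (chr11:83525778-83530518), Ccl3 (chr11:83647843-83649378) and Ccl4 (chr11:83648624-83664683). Ccl24 (chr5:135569935-135573123) and Cxcl1 (chr5:90891245-90893121) are alone among the members in their neighbourhoods. The Ccl4 model of RefSeq overlaps Ccl3 by 755 bp, so both peaks of Ccl3 in old replicate 1 were also counted for Ccl4. A long noncoding RNA gene of the annotation covers Ccl5, and open chromatin there cannot be told apart between them. All 9 genes had a peak in old replicate 1, against 4 genes in the other old library and 7 in the young one. Peaks were called on each library as a whole, so a gene without a peak in a library has no count there, which is not a measured closed state. Ccl8 and Ccl5 had peaks only in old replicate 1, the library richest in immune cells.

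RefSeq promoters (build GRCm38.p6) matched 4 of the 9 members by symbol: Ccl12, Ccl8, Ccl3 and Cxcl1. The 250 bases before the start are printed 5′ to 3′ on the gene's own strand for Cxcl1, Ccl12 and Ccl3. These 3 were taken because, among the 4, their start-site peaks were opened by different sets of cells. Capitals mark the kappa B motif in Cxcl1 and the TATA box in Ccl12. The Cxcl1 stretch is chr5:90890995-90891244 on the plus strand, that of Ccl12 is chr11:82101595-82101844 on the plus strand, and that of Ccl3 is chr11:83649379-83649628 on the minus strand.
Cxcl1: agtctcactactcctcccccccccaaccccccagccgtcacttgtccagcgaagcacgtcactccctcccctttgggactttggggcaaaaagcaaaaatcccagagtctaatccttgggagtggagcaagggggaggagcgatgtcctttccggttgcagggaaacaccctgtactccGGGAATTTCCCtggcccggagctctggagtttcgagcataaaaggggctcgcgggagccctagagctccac
Ccl12: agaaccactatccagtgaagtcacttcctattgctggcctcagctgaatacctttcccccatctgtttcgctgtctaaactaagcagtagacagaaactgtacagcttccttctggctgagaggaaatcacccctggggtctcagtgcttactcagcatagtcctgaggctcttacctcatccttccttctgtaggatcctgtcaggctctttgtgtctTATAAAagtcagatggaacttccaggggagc
Ccl3: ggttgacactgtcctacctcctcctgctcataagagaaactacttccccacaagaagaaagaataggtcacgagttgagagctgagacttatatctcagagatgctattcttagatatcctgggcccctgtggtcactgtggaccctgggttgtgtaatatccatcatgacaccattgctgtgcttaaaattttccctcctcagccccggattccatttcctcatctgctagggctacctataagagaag
Both strands were searched for 4 motifs. The kappa B motif, which NF-kB binds, had 2 overlapping matches in Cxcl1, at -71 to -62 and -70 to -61 from the start, and none in the other 3 promoters. Of 32851 promoters of this length, 7.25% held a match. TATAAA, the TATA box, was found in Ccl12 at -31 to -26 and in Ccl8 at -32 to -27, and in 12.4% of all promoters. Neither TGANTCA (AP-1, in 6.75% of all) nor TTGCNNAA (C/EBP, in 9.56%) occurred in the 4 stretches. A match is a description of letters and not a site of binding. The whole Cxcl1 stretch lay inside a peak in all 3 libraries, those of Ccl12 and Ccl3 in old replicate 1 and the young library, and that of Ccl8 in old replicate 1 alone.

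Levels are given as counts of transposase insertions in a gene's peaks per 1000000 counts in all peaks of the same cells (CPM). Parentheses hold exact 95% Poisson intervals computed on fragments, which cover counting error only. Levels of different genes are not compared, since their peaks differ in number and length.

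Ccl2, which attracts monocytes through CCR2, was open in macrophage or dendritic-like cells at 48.9 CPM (46.5 to 51.5) in old replicate 1 and 34.2 CPM (23.1 to 48.8) in the young library. Endothelium-like cells came next in both libraries, with 20.03 CPM (13.1 to 29.4) in old replicate 1, 13.7 CPM (5.01 to 29.7) in the second old library and 15.7 CPM (5.10 to 36.6) in the young one. These 3 endothelial intervals overlap. Proximal tubule-like cells stood at 5.59, 0.623 and 0.272 CPM in the same order of libraries, and T or NK-like cells at 0.701 CPM in old replicate 1. In cluster 18 of old replicate 1 no count fell in Ccl2 peaks, which allows up to 1.98 CPM (3 counts of the total). Of all Ccl2 counts in old replicate 1, 96.9% came from macrophage or dendritic-like cells. These cells held 69.9% of all its counts in peaks (1.67% in the young library). In old replicate 2, which had 4 such cells, 66.0% of Ccl2 counts came from proximal tubule-like and 25.5% from endothelium-like cells. The latter classes held 83.4% and 1.47% of all counts in peaks of that library. The peak over the lower-coordinate end of the gene, at chr11:82035019-82035934, carried 44.3 of the 48.9 CPM in macrophage or dendritic-like cells and 16.5 of the 20.03 CPM in endothelium-like cells of old replicate 1.

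Ccl7 and Ccl12 encode further CCR2 ligands. Ccl7 stood at 16.3 CPM (14.9 to 17.7) in macrophage or dendritic-like cells of old replicate 1 and at 3.54 CPM (0.730 to 10.3) in those of the young library. Its 2 peaks in old replicate 1 differed by class. The one over the lower-coordinate end (chr11:82045103-82046007) held 7.59 CPM in macrophage or dendritic-like cells, 0.447 CPM in proximal tubule-like cells and none in T or NK-like cells. The one past the other end (chr11:82047787-82048687) held 8.66, 4.92 and 3.504 CPM in these classes. Only this second element had a peak in every library, and it is therefore the one behind the Ccl7 values in old against young tubule cells. Of the Ccl12 counts in old replicate 1, 98.5% came from macrophage or dendritic-like cells, at 52.5 CPM (49.9 to 55.1), with 32.4 CPM (21.7 to 46.6) in the young library. Every other named class lay at or under 4.40 CPM. Its start-site peak held 38.6 CPM and a second peak upstream 13.8 CPM in old replicate 1. Ccl8, a ligand of CCR8 in the mouse, had 64 counts in all, 62 of them in macrophage or dendritic-like cells (1.02 CPM, 0.702 to 1.43).

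Ccl3, Ccl4 and Ccl5 encode inflammatory chemokines that attract T cells and monocytes. Ccl3 was open at 85.7 CPM (82.5 to 89.0) in macrophage or dendritic-like cells, 87.9 CPM (70.2 to 109) in neutrophil-like cells and 27.7 CPM (24.02 to 31.7) in T or NK-like cells of old replicate 1. The first 2 intervals overlap and the third lies below both. In the young library macrophage or dendritic-like cells stood at 63.7 CPM (48.2 to 82.5) and T or NK-like cells at 1.96 CPM, from 1 count. Ccl4 stood at 193 CPM (188 to 198), 182 CPM (156 to 211) and 121 CPM (113 to 130) in these classes, again with T or NK-like cells below the other two. These sums include both Ccl3 peaks. In the Ccl4 peaks not shared with Ccl3, the classes stood at 107 CPM (103 to 111), 93.8 CPM (75.5 to 115) and 93.6 CPM (86.7 to 101). There T or NK-like cells were level with neutrophil-like cells and below macrophage or dendritic-like cells. Young macrophage or dendritic-like cells stood at 150 CPM (125 to 177) and young T or NK-like cells at 25.4 CPM (10.2 to 52.4). Cluster 18 was low for both genes, at 6.59 and 6.88 CPM for Ccl3 and 11.9 and 15.5 CPM for Ccl4 in old replicate 1 and the young library. In old replicate 1, the library with a Ccl5 peak, Ccl5 was the only member whose highest class was T or NK-like, with 36.9 CPM (32.6 to 41.6) against 4.09 CPM (3.41 to 4.88) in macrophage or dendritic-like cells. T or NK-like cells gave 67.3% of its counts and macrophage or dendritic-like cells 31.8%.

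**Figure D1:**
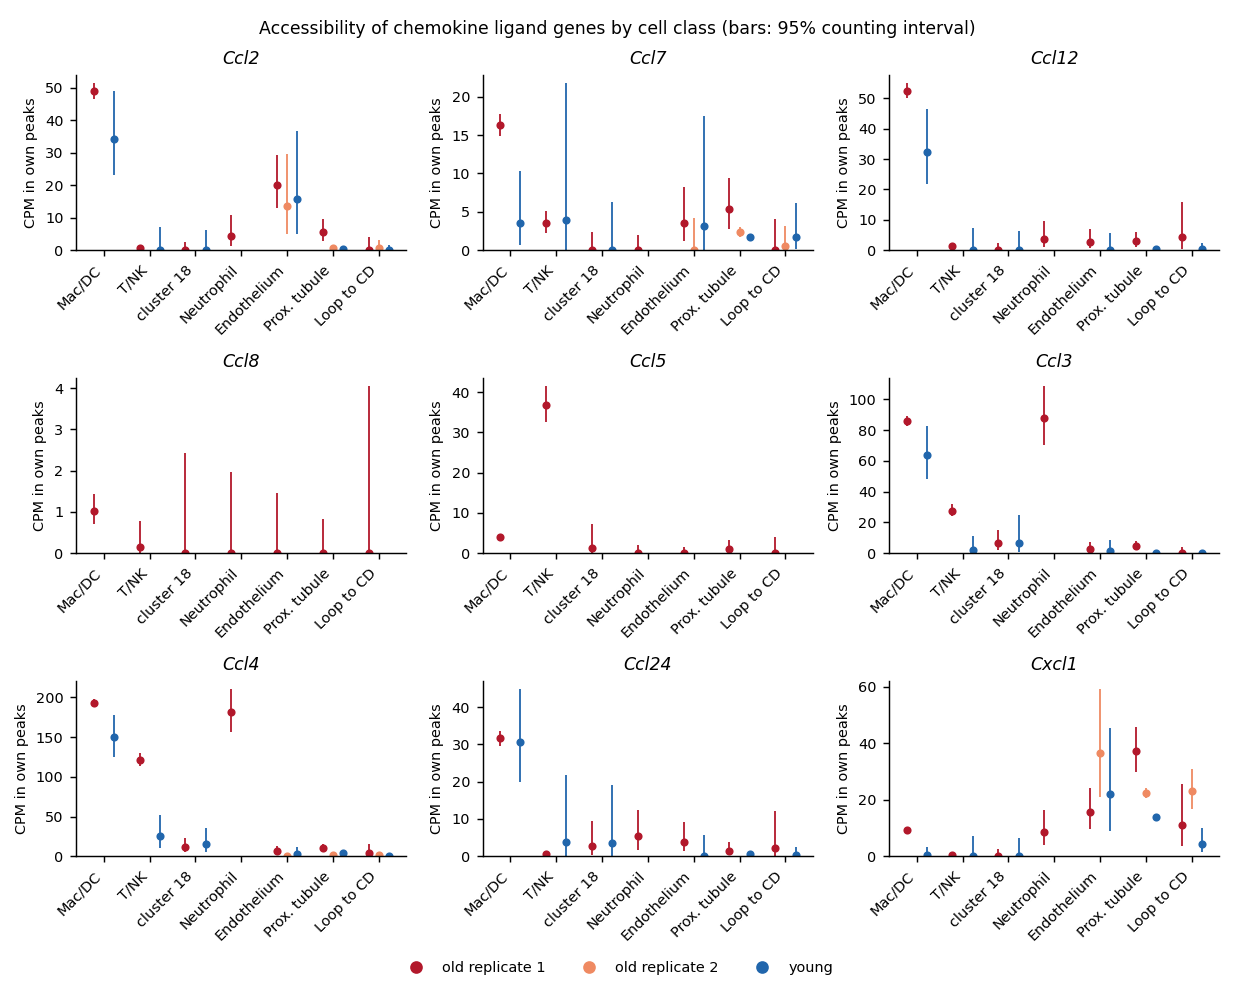
Accessibility (CPM in each library's own peaks, linear axis from 0) of the 9 genes by cell class and library, for classes with at least 30 cells. Points are libraries, bars are 95% counting intervals, Mac/DC is macrophage or dendritic-like, and Loop to CD is loop to collecting duct-like. Ccl12 is high in macrophage or dendritic-like cells alone, Ccl5 in T or NK-like cells, and Cxcl1 in tubule and endothelium-like cells.

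Within the shared Ccl3 and Ccl4 stretch, the classes opened different elements in old replicate 1. The peak over the Ccl3 start (chr11:83649131-83650056) held 76.5 CPM in macrophage or dendritic-like, 70.9 CPM in neutrophil-like and 26.5 CPM in T or NK-like cells. An element in the Ccl4 body at chr11:83657047-83657986 ranked the classes differently, with T or NK-like cells first: it held 29.9 CPM in T or NK-like cells, 4.72 CPM in macrophage or dendritic-like cells and 1.07 CPM in neutrophil-like cells. A further element at chr11:83661966-83662840 was open in all 3, at 53.7 CPM in T or NK-like, 38.3 CPM in macrophage or dendritic-like and 34.6 CPM in neutrophil-like cells. The next, chr11:83663374-83664194, was at 29.5 and 29.8 CPM in macrophage or dendritic-like and neutrophil-like cells and at 6.38 CPM in T or NK-like cells. In the young library the start peak held 63.7 CPM in macrophage or dendritic-like cells. No peak was called in that library over the element that T or NK-like cells opened in old replicate 1. The merged Ccl4 region with a peak in every library joins an element open in macrophage or dendritic-like cells (20.5 CPM at chr11:83658579-83659591 in old replicate 1) to a neighbouring one at chr11:83659339-83660166 that was called in old replicate 2. It therefore does not follow 1 element across libraries.

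**Figure D2:**
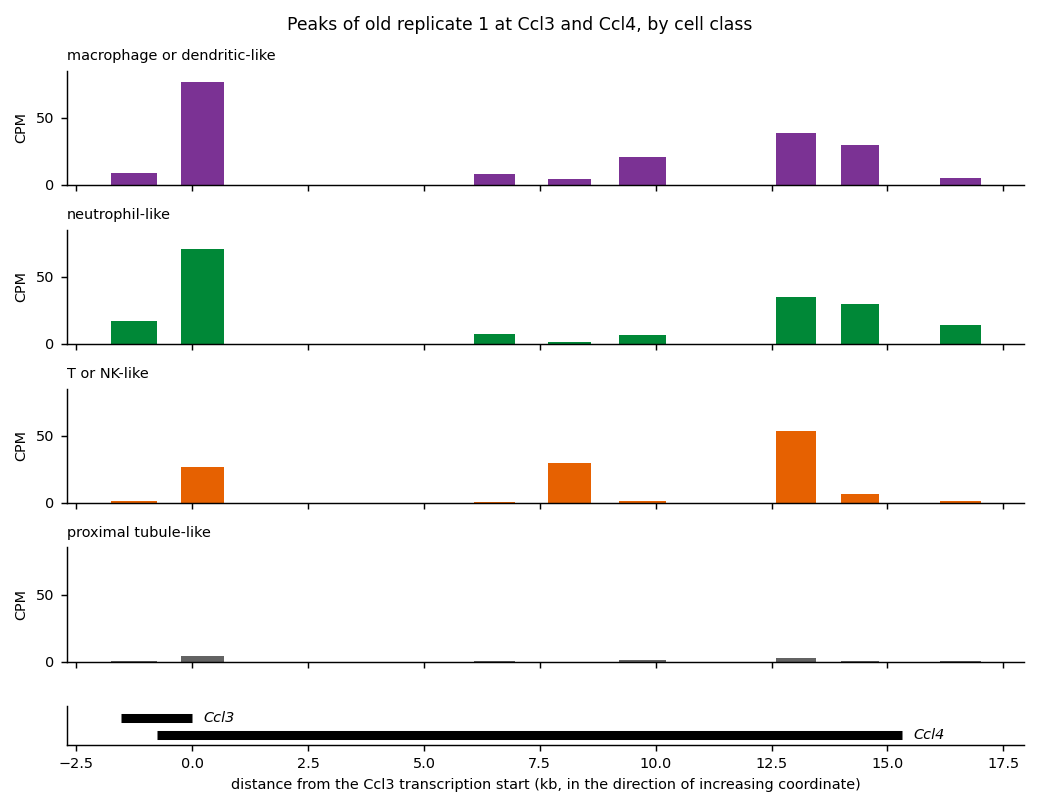
CPM (linear axis) in each peak of old replicate 1 around Ccl3 and Ccl4, drawn to scale by distance from the Ccl3 transcription start in kb, for 4 cell classes, with gene bodies below. Bars span the peaks. T or NK-like cells open the element about 8 kb from the start (29.9 CPM) that macrophage or dendritic-like cells hardly open (4.72 CPM).

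Ccl24, an eosinophil attractant that acts through CCR3, stood at 31.7 CPM (29.7 to 33.7) in macrophage or dendritic-like cells of old replicate 1 and 30.7 CPM (20.03 to 44.9) in those of the young library. These cells gave 97.8% of its counts in old replicate 1. In the young library they gave 40.6% and proximal tubule-like cells 50%. These classes held 1.67% and 86.8% of all counts in peaks there, and proximal tubule-like cells stood at only 0.726 CPM for Ccl24. In old replicate 1 every other class with at least 30 cells and a name lay at or under 5.33 CPM. The peaks differed between the libraries. Old replicate 1 had 17.0 CPM over the higher-coordinate end of the gene (chr5:135572738-135573648) and 12.9 CPM in a peak beyond the lower one (chr5:135568366-135569294). The young library had a peak only at the latter place, with 30.7 CPM.

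Cxcl1, which attracts neutrophils through CXCR2, had another pattern. Proximal tubule-like cells stood at 37.1 CPM (29.6 to 45.9) in old replicate 1, 22.4 CPM (20.6 to 24.3) in the other old library and 13.8 CPM (12.8 to 14.9) in the young one. The 3 intervals do not overlap, and both old libraries lie above the young one. Endothelium-like cells were at 15.7 CPM (9.60 to 24.3), 36.4 CPM (20.8 to 59.2) and 21.98 CPM (8.84 to 45.3). Loop to collecting duct-like cells were at 11.0 CPM (3.57 to 25.6), 22.9 CPM (16.6 to 30.9) and 4.30 CPM (1.40 to 10.0). Macrophage or dendritic-like cells held 9.19 CPM (8.15 to 10.3) in old replicate 1, and T or NK-like cells 0.561 CPM (0.153 to 1.44). In old replicate 1 most of the macrophage signal came from outside the start. Their start-site peak, which holds the printed kappa B match, had 2.17 CPM against 33.1 CPM in proximal tubule-like cells, while a downstream peak at chr5:90893983-90894926 had 7.02 against 4.02 CPM. That downstream peak was called in old replicate 1 alone.

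Inside the macrophage or dendritic-like class, 4 clusters differed in old replicate 1. Clusters 0 and 9 scored highest on resident macrophage markers, cluster 4 on patrolling monocyte markers and cluster 12 on dendritic cell markers. Ccl12 stood at 70.9 CPM in cluster 0, 96.1 CPM in cluster 9, 28.0 CPM in cluster 4 and 7.95 CPM in cluster 12. Ccl7 (20.2, 28.0, 11.5 and 3.01 CPM) and Cxcl1 (13.1, 18.01, 4.07 and 0.137 CPM) took the same order. The clusters with resident macrophage markers were thus the highest for these 3 genes and the dendritic one the lowest. Ccl2 ranged less, from 56.5 CPM in cluster 0 to 29.6 CPM in cluster 12. Ccl3 was alike in clusters 0 and 4, at 90.3 and 90.9 CPM with overlapping intervals, and lowest in cluster 12 at 33.8 CPM. Ccl5 alone was highest in cluster 12, at 14.0 CPM (10.4 to 18.4) against 1.83 to 2.95 CPM in the others. In the young library clusters 4 and 12 were large enough to read, with 54 and 39 cells, and Ccl12 was at 18.6 and 7.67 CPM there. Among T or NK-like cells, cluster 20 (72 cells of old replicate 1), chosen after its values were seen, scored highest on NK markers. It held 90.8 CPM of Ccl3 (59.9 to 132) and 216 CPM of Ccl4 (166 to 276), against 25.1 and 117 CPM in the larger cluster 1, while Ccl5 stood at 44.5 CPM (23.7 to 76.1) and 36.5 CPM. A cluster was not tested against another.

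**Figure D3:**
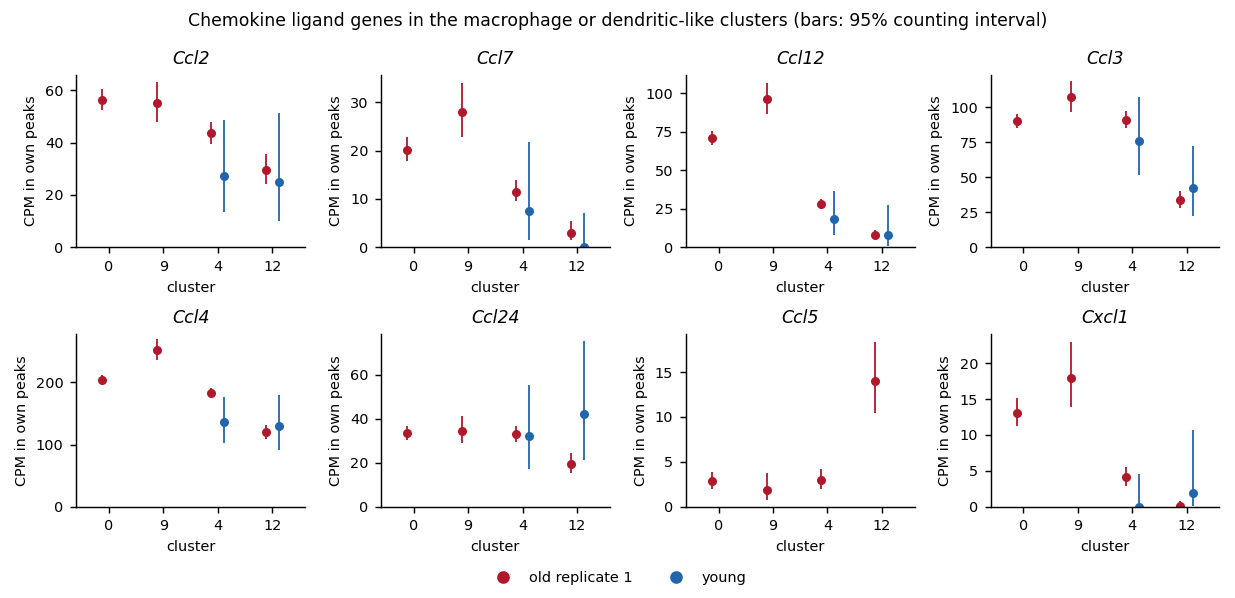
CPM (linear axes from 0) of 8 genes in the 4 macrophage or dendritic-like clusters, for clusters with at least 30 cells in a library. Points are libraries and bars 95% counting intervals. Ccl12 falls from 96.1 CPM in cluster 9 to 7.95 CPM in cluster 12 of old replicate 1, and Ccl5 is highest in cluster 12.

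To compare classes over libraries, counts were summed per class and library into 16 sums and fitted with the library as a block. The fit tested 26049 genes and 8 members, since Ccl8 did not pass the filter on low counts. Adjusted p-values are those of the quasi-likelihood test of edgeR, with Benjamini-Hochberg adjustment over all genes tested. A library without a peak in a gene gives it no counts in any class, so values for Ccl5 rest on old replicate 1, and those for Ccl12, Ccl3 and Ccl24 on old replicate 1 and the young library. A member also passes the filter most easily where it is high, so the counts of members are descriptions. Ccl3 and Ccl4 share peaks yet enter these counts and medians separately, so their calls are not independent.

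Against proximal tubule-like cells, 5 of 8 members were higher in macrophage or dendritic-like cells, beside 17.4% of all genes tested, and 1 was lower, beside 22.1%. The log2 difference was 5.81 ± 0.78 (SE) for Ccl3, 5.59 ± 0.92 for Ccl12, 5.04 ± 0.87 for Ccl2, 5.04 ± 1.06 for Ccl24 and 5.01 ± 0.51 for Ccl4. Adjusted p ran from 2.43e-06 for Ccl4 to 0.00204 for Ccl24, and these 5 calls held without each library in turn wherever the gene was tested. Cxcl1 was lower, at -2.04 ± 0.72 (adjusted p = 0.0357). The Cxcl1 call was lost without old replicate 2 (-2.38, adjusted p = 0.0618), without the young library (-1.36, adjusted p = 0.112) and with a window of 5 kb (-0.80, adjusted p = 0.423). Ccl7 (1.33 ± 1.01, adjusted p = 0.312) and Ccl5 (1.97 ± 1.44, adjusted p = 0.312) did not pass. The median of the 8 members was 5.02, beside -0.06 for all genes.

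T or NK-like cells exceeded proximal tubule-like cells at 3 members, beside 19.2% of all genes, and lay below at 1, beside 24.4%. Ccl4 was higher by 3.59 ± 0.51 (adjusted p = 5.82e-05), Ccl3 by 3.18 ± 0.75 (adjusted p = 0.00452) and Ccl5 by 5.03 ± 1.61 (adjusted p = 0.0335), and Cxcl1 was lower at -5.70 ± 1.07 (adjusted p = 0.000714). None of the tested genes for CCR2 ligands (Ccl2, Ccl7 and Ccl12) passed. Without old replicate 1, 2 members stayed past the threshold, Ccl3 was at 1.89 (adjusted p = 0.569) and Ccl5 was not tested. Ccl5 was also lost without old replicate 2 (4.90, adjusted p = 0.062) and in DESeq2 (5.64, adjusted p = 0.414).

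Macrophage or dendritic-like cells exceeded T or NK-like cells at 5 members, beside 10.9% of all genes, and no member was lower, beside 6.17%. The differences were 6.84 ± 1.30 for Ccl2, 6.32 ± 1.13 for Ccl12, 5.18 ± 1.29 for Ccl24, 3.66 ± 1.05 for Cxcl1 and 2.63 ± 0.72 for Ccl3, with adjusted p from 0.00218 to 0.0271. Ccl4 was at 1.42 ± 0.49 (adjusted p = 0.0573) and Ccl5 at -3.06 ± 1.41 (adjusted p = 0.188). Without old replicate 1, none of these 5 passed: Ccl3 was at 5.18 (adjusted p = 0.0788), Ccl2 at adjusted p = 0.103, Ccl12 at 0.199, Ccl24 at 0.38 and Cxcl1 at 0.778. The 1 member called there was Ccl4 (2.72, adjusted p = 0.049). Without old replicate 2 Cxcl1 was at 3.67 (adjusted p = 0.0697).

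Against cluster 18, which had B cell markers, 6 members were higher in macrophage or dendritic-like cells, beside 6.55% of all genes, and none was lower, beside 2.96%. Cluster 18 had 0 counts at Ccl2, Ccl12, Ccl7 and Cxcl1 in both libraries. Their adjusted p was 0.00434, 0.00264, 0.0426 and 0.04998 in this order, so the Cxcl1 call lies at the threshold of 0.05. With 3 counts over the group as the floor, macrophage or dendritic-like cells were at least 33.9-fold higher for Ccl2, 36.3-fold for Ccl12, 11.1-fold for Ccl7 and 6.26-fold for Cxcl1. With 3 counts per library as the floor, the bounds were 24.7, 26.5, 8.22 and 4.65 in old replicate 1. In the young library they were 6.62 for Ccl2 and 6.28 for Ccl12, and Ccl7 and Cxcl1 lay under the floor and have no bound. Ccl3 was higher by 4.02 ± 0.86 on the log2 scale (adjusted p = 0.0109) and Ccl4 by 4.10 ± 0.63 (adjusted p = 0.000806), while Ccl24 was at 3.61 ± 1.13 (adjusted p = 0.0625). Without old replicate 1, Ccl4 alone was called, and without old replicate 2, which has no cells of either kind in the fit, Ccl7 and Cxcl1 were lost (adjusted p = 0.0799 and 0.0957).

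Endothelium-like cells exceeded proximal tubule-like cells at 1 of 8 members, beside 11.2% of all genes, and no member was lower, beside 15.7%. That member was Ccl2, at 3.66 ± 0.80 (adjusted p = 0.00385), and without old replicate 2 it was at 3.36 (adjusted p = 0.0608). Cxcl1 did not separate these classes, at -0.11 ± 0.61 (adjusted p = 0.92). The macrophage markers summed to 352, 245 and 301 CPM in endothelium-like cells (old replicates 1 and 2, then young), against 318, 214 and 194 CPM in proximal tubule-like cells and 1729 CPM in macrophage or dendritic-like cells of old replicate 1. Of the 18 markers, 2, 9 and 6 were at 0 in endothelium-like cells, and their part in the Ccl2 result was not tested.

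Other genes of the system were read from lists. Against proximal tubule-like cells, macrophage or dendritic-like cells were higher at 6 and lower at 5 of 21 other chemokine ligands. They were higher at 10 and lower at 2 of 21 chemokine receptors, and higher at 19 and lower at 1 of 24 genes of NF-kB and innate signalling. Of all genes tested, 17.4% were higher and 22.1% lower. Ccl9 rose most among the other ligands, by 5.49 ± 0.60 (adjusted p = 4.35e-06), and Cxcl5, a further CXCR2 ligand, was lower at -3.93 ± 0.92 (adjusted p = 0.00362), the direction of Cxcl1. Among receptors Cx3cr1, the fractalkine receptor and one of the markers that named the class, was higher by 6.40 ± 0.54 (adjusted p = 1.09e-06) and Ackr3, a scavenging receptor, lower at -6.64 ± 0.58 (adjusted p = 5.29e-07). Of the signalling genes, Il1b was higher by 7.06 ± 0.60 and Tnf by 5.01 ± 0.44, both cytokines that induce chemokines. The medians were 0.33, 1.81 and 1.29 for the 3 lists, beside -0.06 for all genes. In T or NK-like against proximal tubule-like cells 9 of 21 receptors were higher, among them Cxcr6 at 5.02 ± 1.28 (adjusted p = 0.0126), and 2 were lower. Of 21 other chemokine ligands 1 was higher and 3 were lower. The higher one was Xcl1, a ligand made by T and NK cells, at 3.22 ± 0.97 (adjusted p = 0.0146). The lower ones were Cxcl12 (-4.76), Cxcl5 (-4.19) and Cx3cl1 (-3.32). Of all genes tested, 19.2% were higher and 24.4% lower there.

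The genes whose level over the 16 sums was most like that of a member were found by Pearson's r on log2 values, as a description, since the sums share libraries and depth. A library with no peak for a gene gives 0 in all its sums, as in old replicate 2 for Ccl12, Ccl24 and Ccl3 and in both other libraries for Ccl5, and these zeros enter r. For Ccl4 the closest was Cx3cr1 (r = 0.972), for Ccl3 Havcr2 (r = 0.972) and for Ccl5 Klrh1 (r = 0.99). Lilra5 was among the closest 3 for Ccl12 (r = 0.962) and for Ccl24 (r = 0.946), and Sult6b1 among those for Cxcl1 (r = 0.912). Among the members themselves, Ccl12 and Ccl24 gave r = 0.931. Ccl3 and Ccl4 gave 0.962 but share peaks. Cxcl1 ran from -0.501 with Ccl4 to 0.229 with Ccl2.

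Old and young cells were compared in proximal tubule-like, loop to collecting duct-like and endothelium-like cells, over regions with a peak in every library, with 2 old libraries against 1 young one. Levels in this comparison are CPM of the counts in those regions. No member passed in any class. In proximal tubule-like cells 0 of 4 members tested were called, beside 0.549% of 22959 genes, and 2 had an unadjusted p under 0.05. DESeq2 called neither of the 2 members to which it gave an adjusted p. Cxcl1 was at 35.2 CPM (27.8 to 44.1) in old replicate 1, 27.2 CPM (25.1 to 29.5) in the other old library and 16.6 CPM (15.3 to 17.9) in the young one. Both old libraries were above the young one and their intervals did not reach it. The log2 difference was 0.89 ± 0.31 (unadjusted p = 0.0044, adjusted p = 0.331). With 1 old library at a time it was 1.06 with old replicate 1 and 0.73 with old replicate 2, with no test. Ccl2 was at 4.28, 0.758 and 0.327 CPM, a difference of 2.69 ± 1.34 (unadjusted p = 0.0441, adjusted p = 1), and it was 3.64 with old replicate 1 alone and 1.21 with old replicate 2 alone, with no test. Its high value was thus that of old replicate 1. Ccl7 (1.21 ± 0.89) and Ccl4 (-0.80 ± 0.90) had an adjusted p of 1.

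Most proximal tubule-like clusters belonged to 1 library, and old replicate 1 contributed 119 of its 197 cells to cluster 16, which held 179 and 3 cells of the other libraries. In each library's own peaks, Cxcl1 in this cluster was at 42.1 CPM in old replicate 1 and 34.8 CPM in old replicate 2. The large clusters of old replicate 2 (numbers 2, 6 and 11) stood at 25.3, 18.98 and 15.6 CPM and those of the young library (numbers 3, 5 and 8) at 15.0, 11.4 and 13.6 CPM. Each of these old clusters had a higher value than each of these young ones, with a gap as small as 15.6 against 15.0 CPM. The intervals of clusters 11 (11.3 to 21.1) and 6 (16.2 to 22.1) overlap that of cluster 3 (13.4 to 16.7). That of cluster 2 (22.1 to 28.7) does not. These values set old replicate 2 alone against the young library, and clusters of 1 library are not replicates. In clusters 15 and 17, which held at least 10 cells of each library, the difference was 0.89 ± 0.58 (unadjusted p = 0.126, adjusted p = 1). The size was that of the whole class and the error larger. Young cluster 15 held 14 cells and 0 Cxcl1 counts, so the young side rests on 24 counts of cluster 17. In own peaks, cluster 17 was at 16.5 CPM (4.49 to 42.2) in old replicate 1 and 30.2 CPM (22.9 to 39.0) in old replicate 2. It was at 12.7 CPM (6.77 to 21.7) in the young library, an interval that overlaps only that of old replicate 1. The fit within clusters 15 and 17 was chosen after the data had been seen. Macrophage markers in proximal tubule-like cells, given above, were also highest in old replicate 1, with 0, 4 and 2 of 18 at 0. Their part in the Cxcl1 difference was not tested.

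In loop to collecting duct-like cells Cxcl1 was the 1 member tested, and it was not called, beside 0.182% of 20935 genes. It stood at 12.3 CPM (4.01 to 28.8), 27.7 CPM (20.03 to 37.3) and 5.10 CPM (1.66 to 11.9), so that the first interval overlaps the young one and the second does not. The difference was 2.03 ± 0.73 (unadjusted p = 0.00508, adjusted p = 0.572), and DESeq2 did not call it. In endothelium-like cells neither member tested was called, beside 0.313% of 17227 genes, and none had an unadjusted p under 0.05 or a call in DESeq2. Cxcl1 was at 19.2, 41.1 and 24.5 CPM (0.22 ± 0.60) and Ccl2 at 21.2, 15.4 and 17.5 CPM (0.11 ± 0.76). The age effect on Cxcl1 minus that in proximal tubule-like cells was 1.20 ± 0.80 (adjusted p = 0.9999) in loop to collecting duct-like cells. In endothelium-like cells it was -0.65 ± 0.78 (adjusted p = 0.912). That fit had no library term, so it treated classes of the same library as independent. Among the other lists, 1 of 23 NF-kB and innate signalling genes was called in proximal tubule-like cells, beside 0.549% of all genes tested. This was Irf1, an interferon response factor, higher in old by 1.18 ± 0.31 (adjusted p = 0.0345). It did not pass within clusters 15 and 17 (0.78 ± 0.49) or in DESeq2 (adjusted p = 0.296). None of the other chemokine ligands (17 tested) or receptors (14 tested) was called there by edgeR or DESeq2, and 0 of either had an unadjusted p under 0.05 in edgeR.

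**Figure D4:**
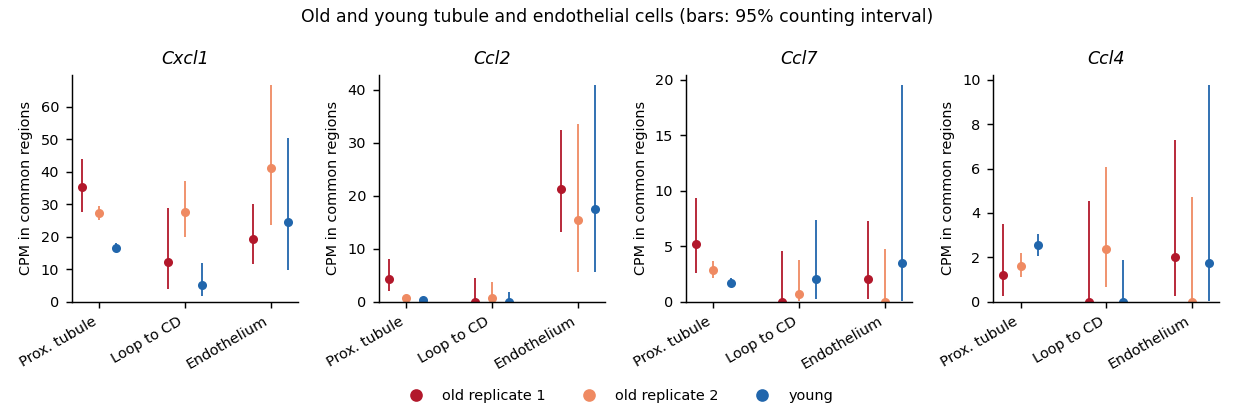
CPM in regions with a peak in every library (linear axes from 0) for the 4 members that have such a region, in proximal tubule-like, loop to collecting duct-like (Loop to CD) and endothelium-like cells. Points are libraries and bars 95% counting intervals. Cxcl1 in proximal tubule-like cells is at 35.2 and 27.2 CPM in the old libraries and 16.6 CPM in the young one.

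For immune cells the old value is that of old replicate 1 alone, so the ratio to the young library has no test, and its interval covers counting error of those 2 libraries. Ratios used regions with a peak in both. In macrophage or dendritic-like cells Ccl2 was 1.30 times the young level (0.903 to 1.93), Ccl12 1.19 (0.825 to 1.79), Ccl3 1.20 (0.924 to 1.59) and Ccl4 1.10 (0.927 to 1.32). These 4 intervals include 1, but with the class scaled to its counts in regions with a peak in every library none of them did: Ccl2 was then at 1.60 (1.12 to 2.38), Ccl12 at 1.47 (1.02 to 2.21), Ccl3 at 1.49 (1.14 to 1.97) and Ccl4 at 1.36 (1.15 to 1.63). Ccl7, with 6 young counts, was at 2.45 (0.829 to 11.9), and Cxcl1, with 1 young count, at 3.68 (0.639 to 147). These 2 members lay past 2-fold higher, as did 3.85% of 21843 genes. Ccl24 was at 0.421 (0.283 to 0.653), past 2-fold lower, as did 15.9% of genes, but with each library's own peaks the ratio was 1.03. The median log2 ratio of all genes was -0.37 here and -0.06 when scaled to counts in regions with a peak in every library, so ratios near 1 depend on the scaling. In T or NK-like cells Ccl4 was 3.46 times higher in old replicate 1 (1.67 to 8.64), from 13 young counts, beside 6.49% of genes past 2-fold higher and 17.7% past 2-fold lower. Ccl3 had 378 counts against 1, a ratio of 13.5 (2.40 to 538). Ccl7 was at 0.896 (0.147 to 36.7), from 2 young counts, and Ccl24 at 0.0717 (0.00373 to 4.23), from 4 counts against 2. In cluster 18 Ccl4 was at 0.766 (0.231 to 2.91), Ccl3 at 0.957 (0.157 to 10.1) and Ccl24, from 2 counts in each, at 0.383 (0.00488 to 30.1). T or NK markers summed to 2209 CPM in old replicate 1 and 974 CPM in the young library, with 0 and 5 of 18 at 0, and the median depth of these cells was 11349.5 and 4104 counts. Their part in the Ccl4 and Ccl3 ratios was not tested.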

How the data were processed

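Open chromatin was measured by mtscATAC-seq in 3 kidney libraries, grouped by the sample titles. Per the submitters' processing notes, the authors used Cell Ranger ATAC 2.1.0 with mm10. Raw counts of insertions were deposited per peak and barcode, and peaks differ between libraries. Most nonzero counts were even (94.3% and 90.9% in old replicates 1 and 2, 89.5% in the young library), so intervals use the count over 2, rounded up. PCR copies and shared cells are not covered by them.

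Overlapping peaks of the libraries, with 1 bp as the least overlap, were joined by bedtools 2.31.1 into 250005 regions, 72317 of them with a peak in every library. Barcodes needed at least 1000 counts. Simulated doublets marked 248, 133 and 135 barcodes, which were removed. Cells were clustered by latent semantic indexing (30 components) and Leiden (resolution 1.0, leidenalg 0.10.2). Clusters were named from marker lists. Cluster 18 could not be named at this resolution and stands for the planned B cell class. Sums of classes with at least 30 cells were tested with edgeR 4.0.16 (TMM, quasi-likelihood, Benjamini-Hochberg, threshold 0.05), with DESeq2 1.42.0 as an alternative. Class comparisons had a library block. The fit that compared the age effect between classes had none and was not planned. Age comparisons used regions with a peak in every library. In simulated data for old against young proximal tubule-like cells, 79% of genes changed by 3 log2 units and 10% of those changed by 1.5 were recovered. For macrophage against proximal tubule-like cells these were 98% and 24%. The changed genes were drawn only from genes above a set mean level, with a single fixed spread for all genes. In the simulation of old against young proximal tubule-like cells, Ccl2, Ccl7 and Ccl4 lay under that level. In that of macrophage against proximal tubule-like cells, every member except Ccl3 and Ccl4 lay under it. The rates of each simulation therefore do not describe the members under its level.

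The members and lists were chosen with earlier results of these data known. All members were named, and from each list the 4 called genes with the largest change were eligible to be named. Promoters came from RefSeq (GRCm38.p6). Alternatives are given in the closing section.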

Additional observations from a re-analysis of the deposited data

Results flagged for a closer look

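Ccl7 stood at 71.3 CPM (39.9 to 118), from 30 counts, in cluster 21 of the young library, which no comparison used. The cluster held 61 young cells, 7 cells of old replicate 2 and none of old replicate 1. Its cells had 0.14 of their libraries' median count and it was not named. Among its 10 leading genes were Ccl11, which is not a member, and Tafa1, Reln and Cdh9. All 30 counts lay in a peak called in the young library past the higher-coordinate end of the gene (chr11:82049112-82049899). None of the other members with a young peak had a count there, which allows up to 8.77 CPM at the upper end of the 95% interval. Proximal tubule-like cells of the young library stood at 1.74 CPM for Ccl7.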

How the results depend on the processing

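Of 111 counts of members called or summary ratios computed under another setting, 100 stayed within 1.5 times the main value and 11 moved. With regions that have a peak in every library, which leaves 4 members to test, the count was 1 for T or NK-like against proximal tubule-like, 2 for macrophage or dendritic-like against T or NK-like, 3 against cluster 18 and 3 against proximal tubule-like cells, beside 57.2%, 19.1%, 12.2% and 53.2% of all genes called in either direction. With no replicate block the library term was dropped, and 1 member was called in macrophage or dendritic-like against T or NK-like cells and 2 against cluster 18 (12.1% and 6.79% of all genes). Leaving out each library in turn gave 2 to 4 for T or NK-like against proximal tubule-like, 0 to 1 for endothelium-like against proximal tubule-like, 1 to 6 for macrophage or dendritic-like against cluster 18, and 1 to 5 against T or NK-like cells. The share of all genes called ran from 31.5% to 42.9%, 12% to 33%, 5.19% to 10.8% and 6.76% to 20.5%. A window of 5 kb gave 2 members for endothelium-like against proximal tubule-like cells (28.6% of all genes). Endothelium-like cells had 0 Ccl5 counts in the 2 kb window, which gives no direction there, and in the 5 kb window Ccl5 was at 1.51 (adjusted p = 0.0466). The ratio of Ccl24 in old replicate 1 over young turned to 1.03 with each library's own peaks, which sets 3 peaks against 1. The causes of the other moves were not tested. Of the calls on single members under another setting, 276 held and 42 were lost, and Cxcl1 in macrophage or dendritic-like cells against cluster 18 and against T or NK-like cells was lost most often. No member was called old against young under any setting. No paired analysis was possible because the labels link no old library to the young one. With 2 old libraries and 1 young one, leaving out an old library leaves no residual degrees of freedom. In young macrophage or dendritic-like cells 1 and 6 counts lie behind the ratios of Cxcl1 and Ccl7, and in young T or NK-like cells 1 count lies behind that of Ccl3.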
